A study of Mus musculus with 3 samples.

Results

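The genes described here are 10 long noncoding RNAs (lncRNAs) of the mouse liver, chosen by symbol: the nuclear architectural RNAs Neat1 and Malat1, the small nucleolar RNA (snoRNA) host genes Gas5, Snhg1, Snhg3, Snhg6, Snhg8 and Snhg12, and the imprinted lncRNAs Meg3 and H19. Each had 1 row among the 23361 genes of the deposited tables. RNA was profiled in 3 libraries, with a single library per group, so no difference between them has a replicate check and no test was made. The groups, all of male C57BL/6J mice aged 8 to 10 weeks according to the labels, were fasted for 12 h, anaesthetised with chloral hydrate and given a midline laparotomy. Sham mice had no vessel occluded and their livers were collected 90 min later. In warm ischemia (WI) mice the portal triad to the left and median lobes was clamped for 90 min. Ischemia-reperfusion (IR) mice had the clamp for 90 min and reperfusion for a further 120 min. Since the sham livers were taken 90 min after the operation and the IR livers later, reperfusion and the longer time cannot be told apart. The study had 6 mice per group, and how many of them contributed to a library is not given in the sources used here.

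A lncRNA of the first kind stays in the nucleus. Neat1 is the scaffold around which paraspeckles, nuclear bodies of RNA-binding proteins, are built, and Malat1 is a highly abundant RNA of nuclear speckles, where splicing factors are stored. A snoRNA host gene carries snoRNAs in its introns. The introns are released by splicing and trimmed to snoRNAs, which guide chemical modification of ribosomal RNA, while the spliced host RNA is exported, engages ribosomes and is removed by nonsense-mediated decay, so that its level depends on both transcription and translation. Many hosts begin with a run of pyrimidines at the start site (a 5′ terminal oligopyrimidine, or TOP, sequence), as ribosomal protein mRNAs do. Meg3 and H19 are maternally expressed imprinted RNAs that are abundant in the fetus and silenced in the liver after birth.

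The start sites are shown because the pyrimidine run of a TOP sequence, where a host has one, lies there. RefSeq promoter sequences on GRCm38.p6, the assembly called mm10 in the files, matched 7 of the 10 genes. Neat1, Snhg6 and H19 had no entry. The annotated start lay within 1 base of the edge of the gene's row in all 7. Each line below gives 10 bases before the start site and 20 bases from it, 5′ to 3′ on the transcribed strand, with the pyrimidine run that holds the first transcribed base in capitals.
Snhg12, chr4:132308668-132308697, plus strand: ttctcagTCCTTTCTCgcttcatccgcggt
Snhg8, chr3:123508317-123508346, minus strand: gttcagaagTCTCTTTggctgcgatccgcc
Gas5, chr1:161035156-161035185, plus strand: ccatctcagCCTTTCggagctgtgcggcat
Snhg1, chr19:8723477-8723506, plus strand: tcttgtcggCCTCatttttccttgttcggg
Snhg3, chr4:132353667-132353696, minus strand: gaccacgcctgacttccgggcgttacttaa
Malat1, chr19:5802653-5802682, minus strand: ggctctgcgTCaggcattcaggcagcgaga
The run was 9 bases long in Snhg12, 7 in Snhg8, 6 in Gas5 and 4 in Snhg1, and it was 0 in Snhg3, whose annotated start is a purine. In Snhg12, Snhg8, Gas5 and Snhg1 the run includes pyrimidines before the annotated start, so its transcribed part is shorter than the length given. A run of at least 5 bases was thus present in 3 of the 5 hosts with a sequence, against 2 of 12 other host lncRNAs with a sequence and 10.1% of all 32851 RefSeq promoters. An annotated start can lie some bases from the start used in liver, which the files cannot show. Among the 300-base promoters of the 7 genes, searched on both strands, the heat shock element core GAANNTTC, the AP-1 site TGANTCA and the E-box CACGTG were found in 0, against 7.86%, 7.81% and 7.15% of all promoters. The hypoxia response core ACGTG, which the E-box contains, was found in Malat1 and Snhg1, against 19.6% of all promoters.

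The libraries differed in ways other than their labels say. Xist, the RNA of the inactive X chromosome, had an FPKM of 18.9 in the sham library, 20.1 in the WI library and 1.29 in the IR library. The Y-linked genes Uty, Kdm5d and Eif2s3y were listed at 0 in the sham and WI libraries and at 0.669 to 13.2 in the IR library. Ddx3y, also on the Y chromosome, was at 0, 0.00849 and 8.58 in sham, WI and IR. Thus the sham and WI libraries went against their male label, and in comparisons with the IR library the sex of the mice and the operation cannot be told apart. Both libraries of the comparison of WI with sham had the same pattern. Of the hepatocyte markers, Apoa1, Ttr, Cps1 and Cyp2e1 were at 677 or more in every library. Apoa1 was lowest in WI, with an FPKM of 7630, 4239 and 8799 in sham, WI and IR, and was called higher in IR than in WI (1.05). The markers' sums were 17443, 13360 and 18379. Alb was listed at 0 in all 3 because Cuffdiff had too many fragments to process there (status HIDATA). That status was given to 1 row in the sham library, 1 in WI and 7 in IR. Of the 6 neutrophil markers 5 were called higher in IR than in WI, of which 3 had an FPKM of at least 1 in every library. The rest of the calls are a description only. The summed FPKM of the 6 was 25.5, 19.7 and 461 in sham, WI and IR, with 0 markers at 0. All 4 erythroid markers also rose, with sums of 876, 698 and 2456. The 6 Kupffer cell markers had sums of 442, 221 and 138, and 5 of them fell at least 2-fold between sham and IR. In IR, 1 Kupffer cell marker was higher than in WI (0.96) and 1 was higher than in sham (0.27). The 6 endothelial markers had sums of 153, 116 and 116 and the 6 stellate cell markers 182, 125 and 122. All 6 genes of each of these 3 lists were lower in WI than in sham, with 2, 1 and 0 past 2-fold. Over all genes whose FPKM reached 1 in any library, 1.1% fell at least 2-fold from sham to WI. From sham to IR 2.15% fell, and from WI to IR 5.78% rose. The endothelial marker Lyve1 had the bounds apart in all 3 comparisons, at 11.2, 2.73 and 33.4, low in WI and high in IR. The 5 cholangiocyte markers had sums of 54.2, 62.0 and 93.6, and Sox9 among them was at 0.276, 0.351 and 1.91, reaching an FPKM of 1 in IR only. The 3 lymphocyte markers had sums of 2.93, 1.85 and 1.09. The part of these differences in the results below was not tested, and in bulk tissue fewer cells of a type and less RNA per cell cannot be told apart.

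Levels are given as FPKM, a count of fragments scaled by transcript length and library size, which is a value per length. It can be set between genes only as far as their RNA was captured alike. How RNA was selected for the libraries is not stated in the study's methods. Each level carries the 95% bounds of Cuffdiff's model, which leave out the variation between mice. In the sham library Snhg6 was the highest of the 10 at 55.7 (95% bounds 27.9 to 83.5), above 95.3% of all genes. It was followed by Snhg1 at 28.8, Snhg3 at 22.6, Snhg12 at 13.0, Snhg8 at 12.6, Malat1 at 7.78, Neat1 at 6.64 and Gas5 at 6.31. Each of these neighbours in the order had overlapping bounds. The bounds came apart only below Gas5, since H19 was at 0.263 and Meg3 at 0.0833. In the IR library the order of the leading genes was Snhg6 (61.5), Snhg1 (47.4), Neat1 (33.9), Snhg12 (28.3) and Snhg3 (24.5), again with overlapping bounds between neighbours. Neat1 thus moved from the 7th place of the 10 to the 3rd, and Malat1 from the 6th to the 8th.

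**Figure D1:**
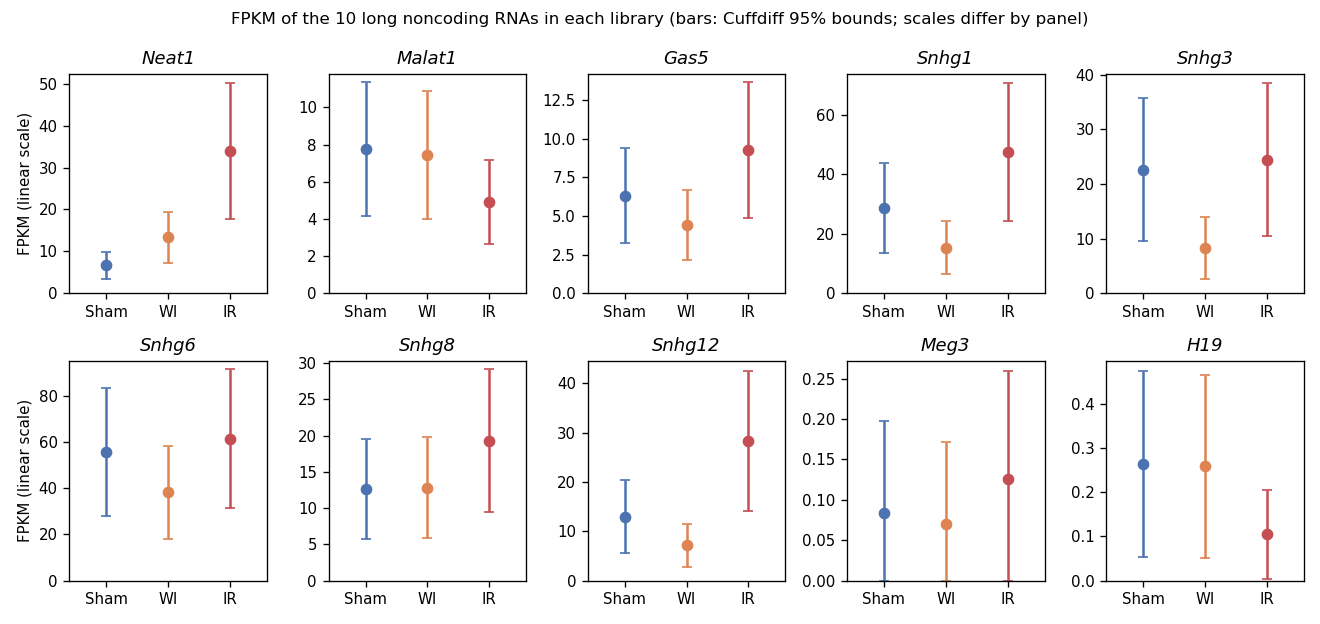
FPKM of each of the 10 lncRNAs (vertical axes, linear, on a scale of its own in each panel) in the sham, WI and IR libraries, with 1 library per group; points are the deposited FPKM and bars the 95% bounds of Cuffdiff's model. Neat1 is higher at each stage, from 6.64 to 33.9, while 5 of the 6 snoRNA hosts have their lowest value in the WI library.

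The libraries were compared as differences of log2(FPKM + 1), and a gene was called changed when FPKM + 1 differed at least 2-fold. The 10792 genes whose FPKM reached 1 in any library were tested. Of the 10 lncRNAs 8 were among them, each with an FPKM over 1 in all 3 libraries, and Meg3 and H19 were not. From sham to WI, 1 of these 8 fell (Snhg3) and 0 rose, where 1.1% of all genes fell and 0.751% rose. From WI to IR, 4 of the 8 rose (Neat1, Snhg1, Snhg3 and Snhg12) and 0 fell, where 5.78% of all genes rose and 1.43% fell. From sham to IR, 2 of the 8 rose (Neat1 and Snhg12) and 0 fell, where 5.35% of all genes rose and 2.15% fell. By the stricter description that the 95% bounds be apart, 0 of the 8 were called between sham and WI (0.676% of all genes in either direction), Snhg12 was called from WI to IR (3.22% of all genes were higher) and Neat1 from sham to IR (2.7% of all genes were higher). The median change of the 8 was -0.48 from sham to WI and 1.11 from WI to IR, beside 0.02 and 0.03 over all genes tested. The comparisons share libraries, and a low value in the WI library alone would give a fall in the first and a rise in the second.

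**Figure D2:**
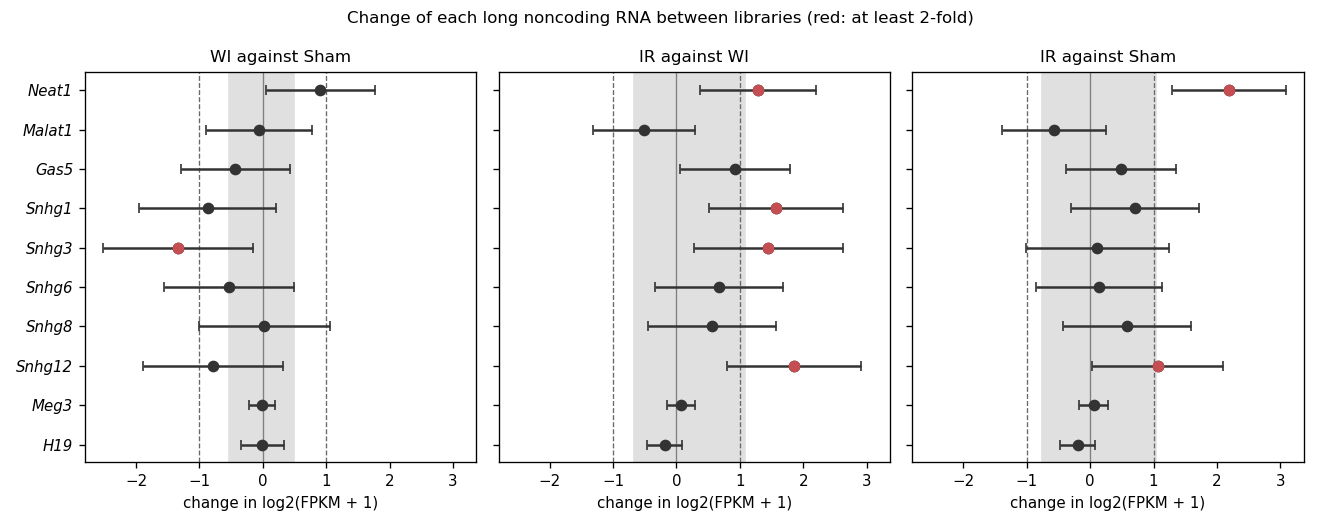
Change in log2(FPKM + 1) of each lncRNA (horizontal axes) in the 3 comparisons of the libraries; points are the changes, red where at least 2-fold, and bars the interval computed from the 95% bounds. Grey bands hold the changes of all tested genes from the 5th to the 95th percentile and dashed lines mark 2-fold. Neat1 is to the right in each comparison, while Snhg3 is at -1.34 from sham to WI and at 1.45 from WI to IR.

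Neat1 was the lncRNA with the largest difference between the sham and IR libraries. It lies on chromosome 19 of mm10, and its row covered 5842302 to 5845478. That is 3177 of the 20773 bases of the RefSeq gene (15.3%), at its 5′ end, which the short polyadenylated isoform and the long paraspeckle-building isoform share, so the isoforms were not measured apart. FPKM was 6.64 in the sham library (95% bounds 3.48 to 9.80), 13.3 in the WI library (7.15 to 19.5) and 33.9 in the IR library (17.7 to 50.1). The IR bounds lay above the sham bounds, and those of WI overlapped both. On the scale of log2(FPKM + 1) the change was 0.91 from sham to WI (interval from the bounds 0.04 to 1.77), just short of 2-fold, and 99.1% of tested genes had a lower change. It was 1.29 from WI to IR (0.37 to 2.20) and 2.19 from sham to IR (1.29 to 3.09). When each library was brought to the same total FPKM these became 0.78, no longer past 2-fold, and 1.70. Neat1 went from above 78.1% of all genes in the sham library to above 86.0% in WI and 92.2% in IR.

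Malat1, the neighbour of Neat1 (chromosome 19, 5795690 to 5802671), lies on the side toward which the RefSeq gene of Neat1 extends beyond its row. Its FPKM was 7.78 in the sham library (4.17 to 11.4), 7.44 in the WI library (3.99 to 10.9) and 4.91 in the IR library (2.63 to 7.19), and all 3 bounds overlapped. The change was -0.06 from sham to WI (-0.89 to 0.78), -0.51 from WI to IR (-1.32 to 0.30) and -0.57 from sham to IR (-1.38 to 0.24). The ratio of Neat1 to Malat1 within a library, which no rescaling of that library can alter, was 0.854 in sham, 1.79 in WI and 6.90 in IR. When each library was brought to the same total FPKM, Malat1 passed 2-fold, with a change of -1.04 from WI to IR and -1.14 from sham to IR. Frmd8, the next tested gene on the other side of Neat1 at 5.50 kb, had an FPKM of 5.64, 5.16 and 4.75.

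The 6 snoRNA hosts had a summed FPKM of 139 in the sham library, 86.3 in the WI library and 190.3 in the IR library. Of the 6, 5 had a lower value in WI than in sham, and all 6 had a higher value in IR than in WI. Against sham, all 6 also had a higher value in IR, and 1 of them (Snhg12) passed 2-fold, a call that was lost when each library was brought to the same total FPKM (0.53). The summed FPKM of the whole table was 475754, 487912 and 712423 in the same order. Rows with status HIDATA numbered 1, 1 and 7, so the IR total may lack abundant genes that the other totals hold. Values at the same total FPKM carry this limit. At the same total, the changes from sham to IR turned negative for Gas5 (-0.02), Snhg3 (-0.45) and Snhg6 (-0.44). The median change of all tested genes then shifted by -0.51 from sham to IR and by -0.48 from WI to IR. Relative to that median these 3 hosts were at 0.43, 0.00 and 0.02.

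Snhg3 had the largest fall of the 10 in the WI library. Its transcript carries H/ACA snoRNAs of the U17 kind, which act in ribosomal RNA cleavage, and its row lies on chromosome 4 (132351933 to 132353686). FPKM was 22.6 in sham (9.47 to 35.7), 8.32 in WI (2.67 to 14.0) and 24.5 in IR (10.5 to 38.4). The WI value was the low one, the sham and IR values were close together, and all bounds overlapped. The change was -1.34 from sham to WI (-2.53 to -0.15), a value that 0.491% of tested genes were below. It was 1.45 from WI to IR (0.27 to 2.63), or 0.97 and under 2-fold at the same total FPKM, and 0.11 from sham to IR (-1.01 to 1.24).

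Snhg12 lies 40.9 kb from Snhg3 on chromosome 4 (132308678 to 132311024) and had the largest rise of the 10 from WI to IR. FPKM was 13.0 in sham (5.62 to 20.3), 7.11 in WI (2.66 to 11.6) and 28.3 in IR (14.1 to 42.5). The IR bounds lay above those of WI and overlapped those of sham. The change was -0.79 from sham to WI (-1.88 to 0.31), 1.85 from WI to IR (0.80 to 2.91) and 1.07 from sham to IR (0.04 to 2.10). At the same total FPKM the call from sham to IR was lost, with a change of 0.53, and that from WI to IR was 1.39.

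Snhg1, host of a cluster of C/D box snoRNAs on chromosome 19 (8723487 to 8726326), had an FPKM of 28.8 in sham (13.7 to 43.9), 15.3 in WI (6.36 to 24.2) and 47.4 in IR (24.1 to 70.7). The sham bounds overlapped both others, and the upper bound of WI exceeded the lower bound of IR by less than 1 FPKM. The change was -0.87 from sham to WI (-1.95 to 0.21), 1.57 from WI to IR (0.52 to 2.62) and 0.70 from sham to IR (-0.31 to 1.71). Slc3a2, the heavy chain of amino acid transporters, begins 0.117 kb away and rose from WI to IR by 1.27, with an FPKM of 15.7, 14.3 and 35.8 in sham, WI and IR.

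The 3 remaining hosts passed 2-fold in no comparison. Gas5, a growth-arrest RNA that accumulates when translation stops (chromosome 1, 161035166 to 161038537), had an FPKM of 6.31 in sham (3.22 to 9.40), 4.41 in WI (2.14 to 6.68) and 9.28 in IR (4.90 to 13.7). Its change was -0.43 from sham to WI and 0.93 from WI to IR (0.06 to 1.79), which is under 2-fold in FPKM + 1 although the ratio of the FPKM values was 2.10. Snhg6 (chromosome 1, 9942025 to 9944118), the highest of the 10 in every library, went from 55.7 through 38.3 (18.2 to 58.4) to 61.5 (31.4 to 91.6), with changes of -0.53 and 0.67. Snhg8 (chromosome 3, 123507552 to 123508336) was the only one of the 6 hosts without a lower value in WI, at 12.6 (5.72 to 19.5), 12.8 (5.81 to 19.9) and 19.3 (9.50 to 29.1), with changes of 0.02 (-0.01 at the same total) and 0.55. The bounds of all 3 genes overlapped between all libraries.

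The proportions of the hosts to each other varied in the point values, and whether they differ beyond their error was not tested. Relative to Snhg6 in the same library, Snhg3 was at 0.405 in sham, 0.217 in WI and 0.398 in IR, and Snhg12 was at 0.233, 0.186 and 0.461. Snhg1 was at 0.516, 0.400 and 0.771. Gas5 stayed between 0.113 and 0.151, and Snhg8 was at 0.226 in sham, 0.335 in WI and 0.314 in IR. These ratios carry the error of both genes, which in each library had a coefficient of variation of 23.6% to 33.9% over the 6 hosts.

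A further 15 snoRNA-host lncRNAs were listed and all were found, 7 of them under other symbols. Of the 15, 8 were lower in WI than in sham and 13 were higher in IR than in WI, with median changes of -0.08 and 0.57. Of these, 10 passed the filter, some only through the IR library, and 7 had an FPKM of at least 1 in all 3 libraries. Among those 7, 4 were called higher in IR than in WI, beside 5.78% of all genes, and 0 lower, and between sham and WI 0 passed 2-fold. The 4 were Snhg5, Zfas1, Snhg15 (listed as Gm11974) and Snhg16 (listed as 1810032O08Rik). Snhg5 had an FPKM of 6.04, 3.06 and 8.10 in sham, WI and IR, and Zfas1, whose row spans 30066 bases and has wide bounds, had 27.9 (0.995 to 54.7), 13.6 (0 to 29.6) and 29.6 (5.84 to 53.3). Both were lowest in the WI library. Snhg15 had 1.98, 1.58 and 6.34 and Snhg16 had 2.78, 2.28 and 7.92, so in these the IR value was the high one. The IR bounds of both, 2.39 to 10.3 and 3.11 to 12.7, overlapped those of sham and WI. Snhg9 was listed at 0 in the WI library, with 1.47 in sham and 3.25 in IR and lower bounds of 0. Snhg14, listed as C230091D08Rik, was the exception, with 2.80, 3.002 and 1.67. When each library was brought to the same total, the 10 that passed the filter went from 9 higher and 1 lower in IR than in sham to 6 higher and 4 lower, and the calls between WI and IR from 5 higher and 0 lower to 3 higher and 1 lower.

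**Figure D3:**
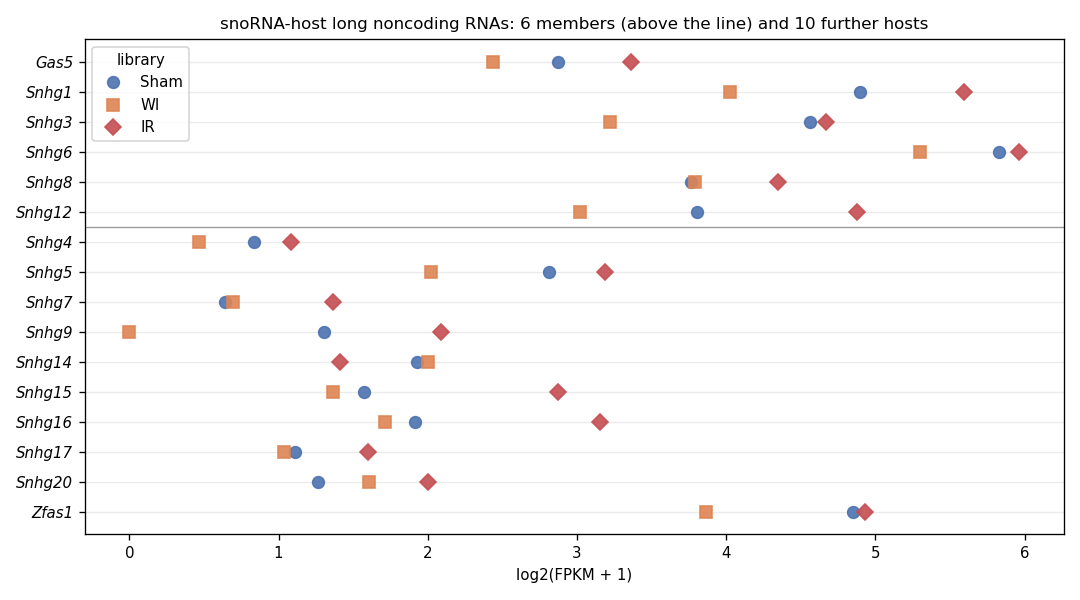
Level of each snoRNA-host lncRNA as log2(FPKM + 1) (horizontal axis) in the sham (circles), WI (squares) and IR (diamonds) libraries, with 1 library per group. The 6 members are above the line and the 10 further hosts that passed the filter below it. At the deposited scaling the IR value is the highest for 15 of the 16 genes, some of which passed the filter only through IR. At the same total FPKM, Gas5, Snhg3, Snhg6 and 4 of the 10 further hosts are lower in IR than in sham.

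Protein-coding genes that also host snoRNAs, many of them ribosomal proteins and translation factors, were set beside the lncRNA hosts. Whether the lists differ was not tested. Of 30 such genes, all past the filter, 0 passed 2-fold from sham to WI, 13 were higher and 17 lower, and the median change was -0.02, with Rcc1 at -0.54 and Snx5 at -0.50. From WI to IR 5 rose and 0 fell, beside 5.78% and 1.43% of all genes, 27 were higher, beside 52.4% of all genes, and the median was 0.55. When each library was brought to the same total, 17 were higher and 13 lower, with 0 past 2-fold. The 4 with the largest changes from WI to IR were Hspa8, the constitutive heat shock chaperone, with an FPKM of 477, 528 and 1424 in sham, WI and IR, Taf1d, a factor for RNA polymerase I, with 6.35, 4.80 and 14.3, Ppan, a ribosome assembly factor, with 3.60, 2.64 and 8.01, and Nop56, a core protein of C/D snoRNPs, with 7.88, 6.40 and 16.8. The lower bounds of Nop56 and Taf1d were 0 in every library.

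Of 16 genes for proteins that bind and assemble snoRNAs, 2 of which are also in the list of protein-coding hosts, 5 rose from WI to IR and 0 fell, beside 5.78% and 1.43% of all genes. Of the 16, 15 were higher, beside 52.4% of all genes, and the median change was 0.71. From sham to WI 0 passed 2-fold and the median was -0.01. Nop58, a core protein of C/D snoRNPs, rose most, from 7.02 in WI (3.55 to 10.5) to 32.6 in IR (17.3 to 47.8), and its bounds were apart. Nhp2 and Gar1, of the H/ACA snoRNPs, went from 11.6 to 33.7 and from 3.72 to 9.49. With the same total in each library, 12 of the 16 were higher in IR than in WI and Nop58 alone passed 2-fold. Fbl, the methyltransferase of C/D snoRNPs, had an FPKM of 21.6, 26.9 and 33.3 in the 3 libraries.

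Of 18 paraspeckle proteins, the partners of Neat1, 0 passed 2-fold in any comparison. Over all genes 0.751% rose and 1.1% fell from sham to WI, 5.78% rose and 1.43% fell from WI to IR, and 5.35% rose and 2.15% fell from sham to IR, so that a count of 0 in a list of this size is near the background, here and in the lists that follow. The median change was 0.00 from sham to WI and 0.25 from WI to IR, the latter turning to -0.27 when each library was brought to the same total. Nono, which with Sfpq binds Neat1 in paraspeckles, had an FPKM of 42.3, 44.4 and 36.3, and Hnrnpk, the member with the highest FPKM, had 81.3, 81.6 and 96.4. Of 15 nuclear speckle and SR proteins, with which Malat1 is found, 0 passed 2-fold from sham to WI or from WI to IR and 1 rose from sham to IR. That was Clk1, a kinase of SR proteins, with 14.4, 16.6 and 30.7. The call of Clk1 was lost at the same total, where 0 of the 15 were called higher and 1 lower from sham to IR. It was also lost when libraries were rescaled by the median ratio over genes, with 0 called. Of 16 factors of nonsense-mediated decay, 0 passed 2-fold in any comparison, with medians of -0.05 from sham to WI and 0.25 from WI to IR, and the latter was -0.21 at the same total. Magoh, of the exon junction complex, had 21.7, 21.3 and 38.7, and Eif4a3 had 13.5, 15.6 and 22.9.

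Among 13 other nuclear or nucleolar lncRNAs, 12 were found and 5 passed the filter. Rpph1, the RNA of ribonuclease P, was called higher in IR than in WI and sham. Rmrp, the RNA of ribonuclease MRP, passed the filter only through the IR library, where it was high, so its difference is a description. Their FPKM was 0.641, 0.838 and 3.38 for Rmrp and 1.22, 1.42 and 4.82 for Rpph1 in sham, WI and IR. Tug1 had 5.54, 6.55 and 4.26, lowest in IR as Malat1 was. Dleu2 (5.40, 5.54 and 4.56) and Firre, listed as 6720401G13Rik (1.82, 1.65 and 0.985), were also lowest in IR. The bounds of all 5 that passed the filter overlapped between all libraries.

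**Figure D4:**
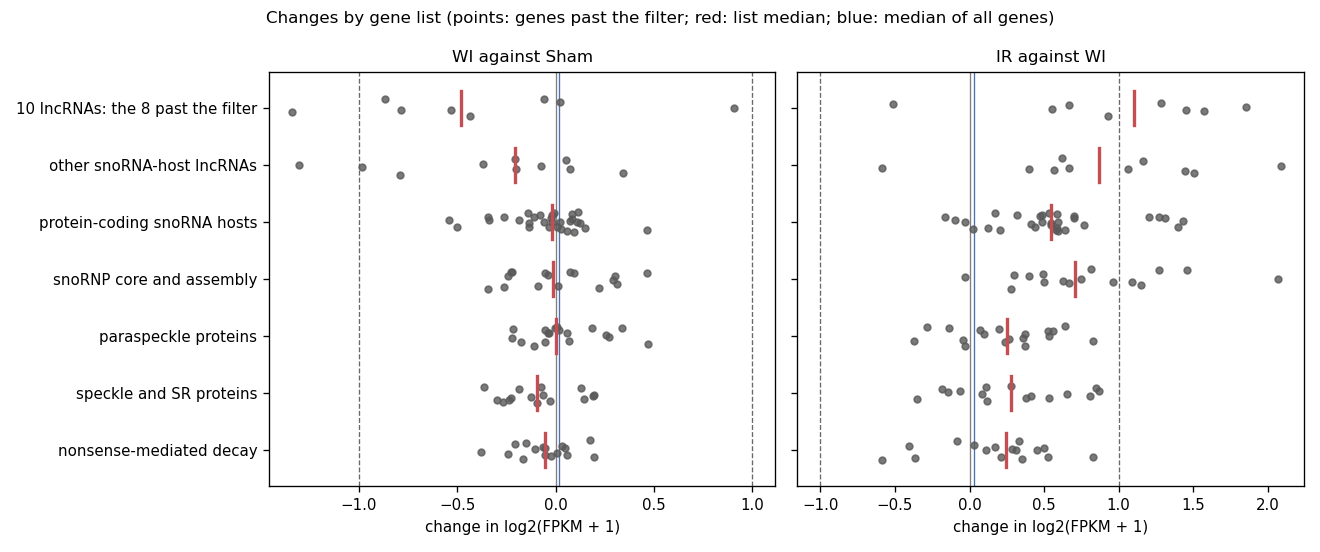
Change in log2(FPKM + 1) (horizontal axes) from sham to WI and from WI to IR for the genes of each list that passed the filter; points are genes, red bars list medians, the blue line the median of all tested genes, and dashed lines 2-fold. From sham to WI, Snhg3 (-1.34, bounds overlapping) and Snhg9 (-1.30, listed at 0 in WI) are the lncRNA hosts below -1. The protein-coding hosts lie between -0.54 and 0.47, and whether the lists differ was not tested.

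The snoRNAs themselves could not be followed. Within the loci of the 6 hosts the tables list 8 snoRNA genes, and 6 of them were at 0 in all 3 libraries. The others were Snord22, in Snhg1, with an FPKM of 20.1 in the IR library (bounds 0 to 200.1), and Snora16a, in Snhg12, with 17.3 (0 to 120.1), each at 0 in sham and WI. With lower bounds of 0, neither value shows a difference between libraries. The 4 microRNA rows within Gas5, Meg3 and H19 were at 0 in every library.

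The nearest tested genes were compared with the hosts, since a locus-wide difference would include them. The nearest tested gene on each side of the 6 hosts was taken where one lay within 200 kb. Of these, 2 passed 2-fold in some comparison, namely Slc3a2 and Wdr74 on either side of Snhg1. Slc3a2 was called higher from WI to IR and from sham to IR, and Wdr74 from sham to IR only. Over all tested genes 5.78% rose from WI to IR and 5.35% from sham to IR. Whether the neighbours differ from that background was not tested. Wdr74, a ribosome assembly factor, had an FPKM of 7.05, 8.34 and 16.0 and rose from sham to IR by 1.08. Trnau1ap, 0.738 kb from Snhg12, had 13.7, 12.9 and 14.4. Rcc1, a regulator of the GTPase Ran 6.18 kb from Snhg3, had 3.53, 2.11 and 3.32, while Phactr4 on the other side had 7.04, 6.14 and 4.99. Cops5, next to Snhg6, had 39.4, 46.2 and 57.4. Of the neighbours of the hosts named here Slc3a2, Trnau1ap, Rcc1 and Phactr4 also had a lower value in WI than in sham, with changes between -0.54 and -0.08.

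Meg3 and H19 were near the lower end of what the libraries recorded. Meg3 (chromosome 12, 109540996 to 109571729) had an FPKM of 0.0833 in sham (0 to 0.197), 0.0698 in WI (0 to 0.172) and 0.126 in IR (0 to 0.259). H19 (chromosome 7, 142575532 to 142578146) had 0.263 (0.0527 to 0.474), 0.258 (0.0520 to 0.465) and 0.105 (0.00422 to 0.205). The bounds of both overlapped between all libraries and no difference was detectable at these levels. Of 18 other imprinted genes 4 passed the filter, with 0 past 2-fold in any comparison. The highest were Igf2r at 3.63, 4.50 and 3.63 and Impact at 2.50, 2.25 and 2.57. Rian and Mirg, transcribed from the same imprinted domain as Meg3, were below 0.17 in every library, and Igf2, the neighbour of H19, had 0.106, 0.0944 and 0.209.

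The genes whose pair of changes (sham to WI and WI to IR) lay nearest to that of each changed lncRNA were sought among 6629 other genes whose FPKM reached 5 in any library. With 3 libraries a pattern is only 2 numbers, so such likeness is a description. Neat1 had 0 genes within 0.2 on the log2 scale in both changes. Its nearest were Steap4, a metalloreductase (FPKM 29.8, 49.7 and 141), Osgin1, an oxidative stress-induced gene (30.9, 69.8 and 148), and Il1b, a proinflammatory cytokine (4.24, 7.29 and 23.4). For Snhg1 there were 6 genes within 0.2, the nearest being Pim3, a kinase (95.2, 51.3 and 150), the transcription factor gene Jun (71.7, 39.1 and 111) and the lncRNA 2410006H16Rik (50.1, 26.7 and 86.8). Snhg3 had 4, led by Agpat9 (8.33, 2.93 and 9.70) and the acute phase genes Saa1 (3414, 1248 and 3251) and Saa2 (2187, 915 and 2756). Snhg12 had 13, led by Spic, a macrophage transcription factor (2.51, 0.938 and 5.78), Ifi205 (3.02, 1.42 and 8.22) and Slfn2 (7.10, 3.53 and 16.6). Spic and Ifi205 reached an FPKM of 5 only in the IR library, where they were high, so their likeness to Snhg12 is in part a result of that filter. The patterns of Snhg1, Snhg3 and Snhg12 were thus low in WI and that of Neat1 was not.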

How the data were processed

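The 3 deposited tables give, per gene, the FPKM from which all values derive. The authors mapped reads to mm10 with TopHat2 2.0.9 and computed FPKM with its 95% bounds and a status in Cuffdiff (Cufflinks 2.0.2) at default parameters. The files hold no counts, and whether counting used strand is not given in the sources used here, so reads of overlapping antisense transcripts cannot be told apart. Low FPKM values came in steps, by which 1 fragment in the WI library was worth 0.905 of 1 in sham, from 14 of 73 short, low genes. For the IR library the steps gave no single value. With 1 library per group no test was possible, and the number of libraries limits the precision.

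Changes are differences of log2(FPKM + 1), which understate low genes. Their intervals combine the deposited bounds and cover Cuffdiff's model only. Genes named are the 10 lncRNAs, listed genes past 2-fold (up to the 4 with the largest change a list, otherwise the 2 with the highest FPKM), neighbours within 200 kb, nested rows and the 3 nearest patterns. Fbl, Snx5, Zfas1, Snhg14, Tug1, Dleu2, Firre, Rian, Mirg and Igf2 were added after their values were seen. Members and lists were chosen with earlier results of these data known. Alternatives were pseudocounts of 0.1 and 0.01, other filters, fold thresholds of 1.5 and 4, 2 rescalings and status OK only. Fold calls were checked on simulated 4-fold changes without noise. Intervals were checked on simulated noise drawn from the same deposited bounds. Neither check covers the variation between mice. Python 3.11.15, numpy 2.4.6, pandas 2.3.3 and matplotlib 3.10.9 were used.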

Additional observations from a re-analysis of the deposited data

How the results depend on the processing

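With 1 library per group nothing could be left out, and the limits of each value are the bounds of Cuffdiff's model. No paired analysis was possible because each group has 1 library. Under the other pseudocounts and scalings each change of the 8 lncRNAs past the filter stayed within its interval from the bounds. Meg3 and H19 were not part of that check. Filters and fold thresholds cannot alter a change. Between sham and WI, 1 of the 8 lncRNAs was called, against 2 with a pseudocount of 0.01 (Neat1 then passed 2-fold), 4 at a 1.5-fold threshold and 0 at 4-fold. From WI to IR 4 were called, against 5 with a pseudocount of 0.1 or 0.01 (Gas5 then passed) and 6 at 1.5-fold, and from sham to IR 2 were called, against 3 at 1.5-fold. At 4-fold, 0 were called from WI to IR and 1, Neat1, from sham to IR. With each library brought to the same total FPKM, 2 lncRNAs were higher and 1 lower from WI to IR, since Neat1 and Snhg3 lost the call, and 1 higher and 1 lower from sham to IR, since Snhg12 lost it, the lower one being Malat1 in both. The number of all genes called in the order WI against sham, IR against WI and IR against sham was 382, 1239 and 1429 with a pseudocount of 0.1, 447, 1331 and 1505 with 0.01, 800, 2132 and 2572 at 1.5-fold, and 24, 194 and 166 at 4-fold, beside 200, 778 and 809. With the same total, 1570 genes were called between IR and WI, 385 of them higher, and 1873 between IR and sham, 319 of them higher. Other filters, the median ratio and status OK only left the counts of lncRNAs called as they were.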
